A study of Mus musculus with 6 samples.

Results

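The genes described here are a ligand, the receptors, the nuclear factor and targets of the Notch pathway: Dll1, Notch1, Notch2, Notch3, Rbpj, Hes1, Nrarp and Dtx1. They were picked by name from the probes of 6 mouse arrays, and all their probes were kept, which gave 8 genes of 30342 names and 12 probes of 39429. The choice was made with the difference between the sample groups already known. That difference is therefore given for these genes as a description. Calls of these genes in a fit of all genes are printed below but are not read as a test. The RNA came from γδ T cells, which carry the γδ form of the T cell receptor, sorted from the spleen of Eomes-IRES-GFP reporter mice (allele Eomestm1.1Twa) on a C57BL6 background. In these mice green fluorescent protein (GFP) reports Eomes, a T-box transcription factor of cytotoxic lymphocytes. GFP-positive and GFP-negative cells, both CD3-positive, TCRγδ-positive and TCRβ-negative after depletion of cells bearing B220, CD4 or CD8β, were taken from the same pools of spleen cells in 3 independent sorts. This gave 3 arrays per group, and each sort pooled 4 to 6 spleens. The mice were 9 weeks old in sort 1, 9.5 weeks in sort 2 and 7.5 weeks in sort 3, and 9, 9 and 4 ng of RNA were amplified.

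Notch receptors are single-pass membrane proteins that are cut when a ligand such as Dll1 or Jag1 on a neighbouring cell binds them. The freed intracellular part enters the nucleus, joins the DNA-binding protein encoded by Rbpj, and switches on targets such as Hes1 and Nrarp. In the thymus Notch1 drives T cell commitment, and in the spleen Notch2 engaged by Dll1 on stromal cells is needed for marginal zone B cells.

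Among the member genes, the ligand Dll1 and the targets Hes1 and Nrarp were higher in GFP-positive cells in each of the 3 sorts, whereas Notch2 and Rbpj were slightly lower in each. By their brightest probes Notch1 and Dtx1 differed by 0.26 and 0.31 on the log2 scale, and Notch3 was close to background. Each level is a log2 signal from which the 75th percentile of its array was subtracted. A difference is GFP-positive minus GFP-negative, SDs are over 3 arrays, and each SE comes from a linear model of all genes (limma). That model has the group as its only term, so its SEs also hold shifts between sorts. Measured means that 50% or more of the 4 spots of a probe exceeded the array's background clearly, by the scanner software's flag, and levels of different probes are not set against each other. The amount of RNA per cell and the number of cells that hold it cannot be told apart in such bulk samples.

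The arrays and the sort were checked first. Raw 75th percentiles were 1581 to 1684 intensity units in sorts 1 and 2 and 534 to 549 in sort 3, and 47.7% to 56.6% of probes were well above background. Eomes itself was measured on all 6 arrays, at 4.91 ± 0.42 in GFP-positive and 0.15 ± 1.12 in GFP-negative cells, so the negative cells were not free of its transcript (difference 4.76, limma adjusted p = 0.0178, n = 3 each). The 4 CD3 chain genes found on the array were measured on every array, with summed levels of 254 to 324 times the 75th percentile in GFP-positive and 265 to 341 times in GFP-negative cells. Slide 1 held both arrays of sort 1 and the GFP-negative array of sort 2, slide 2 held the GFP-positive array of sort 2, and slide 3 held sort 3.

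Dll1, a ligand of the Delta family, showed the greatest difference of the member genes. Its level was -4.61, -5.16 and -5.76 in the GFP-negative cells of sorts 1, 2 and 3. In the GFP-positive cells it was -1.26, -1.23 and -1.20. The positive arrays lay almost on one line and the groups were far apart, while the negative arrays were near background and only that of sort 1 counted as measured. The means were -1.23 ± 0.03 and -5.17 ± 0.58 (n = 3 each), a difference of 3.94 (SE 0.30), or 15.4-fold, and it was 3.35, 3.93 and 4.56 within sorts 1, 2 and 3. Because the negative arrays were dim, the fold depends on how background is treated. With the unmeasured arrays raised to the lowest signal that counted as measured on each, the Dll1 difference was 3.74, or 13.4-fold, and with a model-based background correction that adds an offset of 50 (normexp) it was 2.24.

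The Dll1 value rests on 1 probe, on the minus strand of chromosome 17 from 15504623 to 15504682 (build mm9). A second probe, at 15513726 to 15513785 of the same strand, was designed on another Dll1 transcript and was not well above background on any array. Its means were -6.39 in GFP-positive and -6.28 in GFP-negative cells. The mean of both Dll1 probes therefore gave a smaller difference of 1.92. That undetected probe is shown so that it can be placed on a transcript.
Dll1, second probe: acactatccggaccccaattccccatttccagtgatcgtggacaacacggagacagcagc

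**Figure D1:**
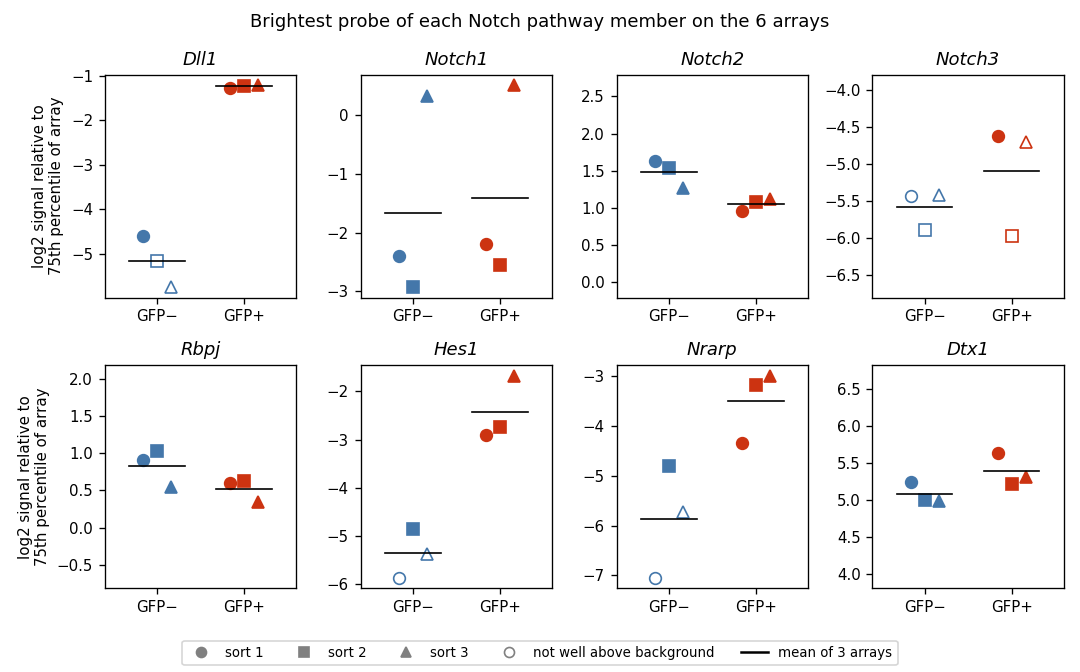
Log2 signal over the array's 75th percentile (vertical axis, with its own range in each panel) for the brightest probe of each member gene, by group (horizontal axis). Symbols stand for sorts, open symbols for arrays not well above background, and lines for means of 3 arrays. Dll1, Hes1 and Nrarp are separated by group, with means of -1.23 against -5.17 for Dll1, whereas Notch1 is separated by sort.

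Of the receptors, Notch2 had the clearer order between the groups. It was at 1.63, 1.54 and 1.27 in the GFP-negative cells of sorts 1, 2 and 3 and at 0.96, 1.09 and 1.11 in the GFP-positive cells. All positive arrays were below all negative ones, and the difference was -0.67, -0.46 and -0.15 within sorts 1, 2 and 3. The mean difference was -0.43 (SE 0.16), which is 1.34-fold lower. The probe lies at 97953914 to 97953973 of chromosome 3 (mm9, plus strand). The other Notch2 probe, at 97951233 to 97951292, was dimmer, was measured on 2 GFP-negative and 0 GFP-positive arrays, and differed by -0.36.

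Notch1 differed more between sorts than between groups. Its brightest probe, at 26314630 to 26314689 of chromosome 2 (mm9, minus strand), read -2.39, -2.93 and 0.33 in the GFP-negative cells of sorts 1, 2 and 3. The matched GFP-positive cells read -2.19, -2.54 and 0.51. Both arrays of sort 3 stood far above the other 4, and within each sort the GFP-positive array was the higher one, by 0.20, 0.39 and 0.18. The difference between the groups was 0.26 with an SE of 1.17, which holds the shift of sort 3. The SD of the 3 differences within sorts was 0.11. Without 1 array the sign turned: the difference was -0.11 without GFP-negative array 1, -0.38 without GFP-negative array 2 and -0.70 without GFP-positive array 3. Those fits leave sort 3 unevenly split between the groups. The second Notch1 probe, at 26319440 to 26319499 of the same strand, was measured on all 6 arrays and gave -4.62, -4.22 and -3.69 in GFP-negative and -4.17, -3.49 and -3.33 in GFP-positive cells. There the GFP-positive array was again the higher one in each sort, by 0.45, 0.73 and 0.36.

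The probes of Notch1 differed in how far sort 3 departed from sorts 1 and 2. Sort 3 was higher by 2.94 on the log2 scale, or 7.66-fold, with the brightest probe and by 0.62, or 1.54-fold, with the other. Before scaling, the brightest probe gave 691 and 763 intensity units in sort 3 against 220 to 346 in sorts 1 and 2, although sort 3 had the dimmer arrays overall. The brightest probe holds 26 A among its 60 bases and the other 18. Bases 13 to 42 of the brightest probe, which hold 20 of its A, and the whole of the other probe are printed with A in capitals.
Notch1, brightest probe, bases 13 to 42: AAAAtcgAAAAgAAAgAAAAAAgAAcgtgA
Notch1, other probe: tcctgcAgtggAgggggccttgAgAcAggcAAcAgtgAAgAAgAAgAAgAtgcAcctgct

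Of 17503 probes of 60 bases measured on all 6 arrays, 0.971% were higher in sort 3 by at least 2 on the log2 scale, with a median of -0.01. Among the 563 of them with at least as many A as the brightest Notch1 probe, the share was 12.3% and the median 0.36. In all 88 probes were as far up in sort 3 as the Notch1 probe, and 51 of these had at least 26 A. These are counts over probes of the same arrays and were examined after the Notch1 values had been seen. Sort 3 also had the smaller RNA input, the younger mice and a slide of its own, and the parts these play in the Notch1 level cannot be told apart. The 2 probes of Notch1 moved by amounts 2.32 apart between the sorts, a gap that 58 of 3086 genes with several measured probes reached, or 1.88%. Within sort 3 the GFP-positive array was higher by 0.18 with the brightest and by 0.36 with the other Notch1 probe, the smallest of the 3 sorts for each.

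**Figure D2:**
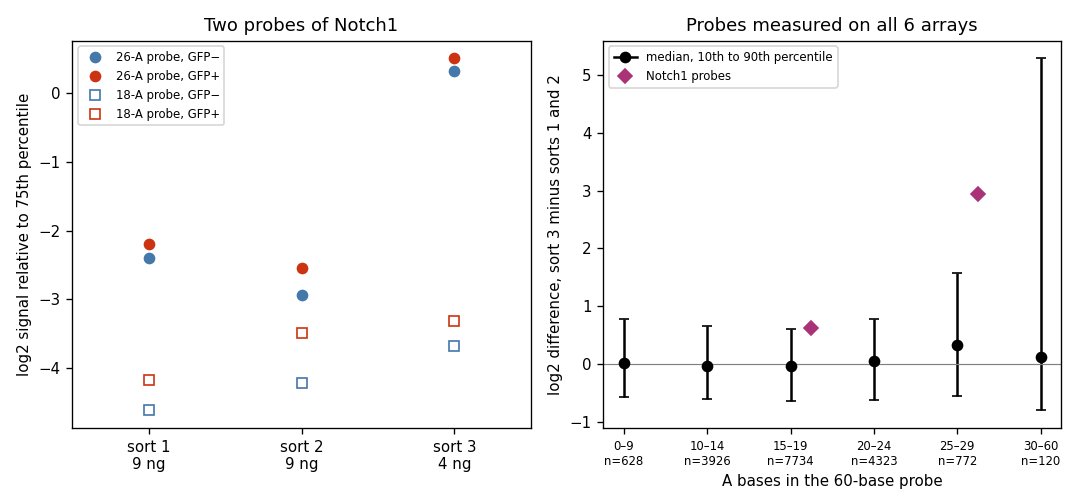
Left, log2 signal over the array's 75th percentile for both Notch1 probes by sort, with the RNA input under each sort. Right, log2 difference of sort 3 from sorts 1 and 2 against the number of A bases for probes measured on all 6 arrays, as median with the 10th to 90th percentile, and the Notch1 probes as diamonds. The Notch1 probe with 26 A lies at 2.94, and the one with 18 A at 0.62.

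Notch3, the remaining receptor, was measured on 1 of the 6 arrays, the GFP-positive array of sort 1, and so did not enter the comparison. Its probe lies at 32257848 to 32257907 of chromosome 17 (mm9, minus strand). Levels were -5.43, -5.89 and -5.42 in GFP-negative and -4.63, -5.97 and -4.71 in GFP-positive cells, which overlap. No fold is given for Notch3, since nearly all of its values were not well above background.

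Rbpj, which encodes the DNA-binding partner of the cleaved receptors, was well measured and slightly lower in GFP-positive cells. Its levels were 0.91, 1.03 and 0.55 in the GFP-negative cells of sorts 1, 2 and 3 and 0.60, 0.63 and 0.34 in the GFP-positive cells. Sort 3 was the lowest in each group, and the groups overlapped because its negative array lay below the positive arrays of the other sorts. Within sorts the Rbpj difference was -0.31, -0.39 and -0.21, with a mean of -0.30 (SE 0.19). This probe lies at 54048503 to 54048562 of chromosome 5 (mm9, plus strand). A dimmer Rbpj probe at 54044777 to 54044836 read -3.06, -3.04 and -3.30 in GFP-negative and -3.76, -4.12 and -4.67 in GFP-positive cells, without overlap. Its difference of -1.05, or 2.07-fold, included 1 positive array that was not measured, and the mean of both Rbpj probes was lower by 0.68.

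The targets differed between the groups by very unequal amounts. Hes1, a transcriptional repressor and classic Notch target, was at -5.87, -4.85 and -5.36 in the GFP-negative cells of sorts 1, 2 and 3. It was at -2.90, -2.74 and -1.67 in the GFP-positive cells. The groups were well apart, with only the negative array of sort 2 measured among the negatives and all 3 positive arrays measured. The mean difference was 2.93 (SE 0.42), or 7.61-fold, and 2.98, 2.11 and 3.69 within the sorts. With unmeasured arrays raised to the floor the Hes1 difference was 2.85, or 7.23-fold, and with the normexp correction it was 1.30. The Hes1 probe lies at 30067820 to 30067879 of chromosome 16 (mm9, plus strand).

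Nrarp, a small ankyrin-repeat protein that is induced by Notch and limits it in turn, followed the same order at lower signal. It was at -7.05, -4.81 and -5.73 in the GFP-negative cells of sorts 1, 2 and 3 and at -4.35, -3.17 and -2.99 in the GFP-positive cells. The Nrarp groups did not overlap, but the positive array of sort 1 and the negative array of sort 2 came close. Its mean difference was 2.36 (SE 0.66), or 5.12-fold, with 2.70, 1.64 and 2.73 within the sorts. With the floor the Nrarp difference was 2.01, or 4.04-fold, and with normexp it was 0.77. As for Hes1, the negative array of sort 2 was the only measured one of its group, and the probe lies at 25038038 to 25038097 of chromosome 2 (mm9, plus strand).

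Dtx1, which encodes the ubiquitin ligase Deltex1 and is a Notch target in T cells, had a bright probe. It was at 5.24, 5.0 and 4.99 in GFP-negative and at 5.63, 5.22 and 5.31 in GFP-positive cells of sorts 1, 2 and 3. The positive array was higher in each sort, by 0.39, 0.22 and 0.32, yet the groups overlapped at 5.24 against 5.22. Dtx1 thus differed by 0.31 (SE 0.17), or 1.24-fold, and by 0.43 with the slide as a block. Its probe lies at 121130278 to 121130337 of chromosome 5 (mm9, minus strand).

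**Figure D3:**
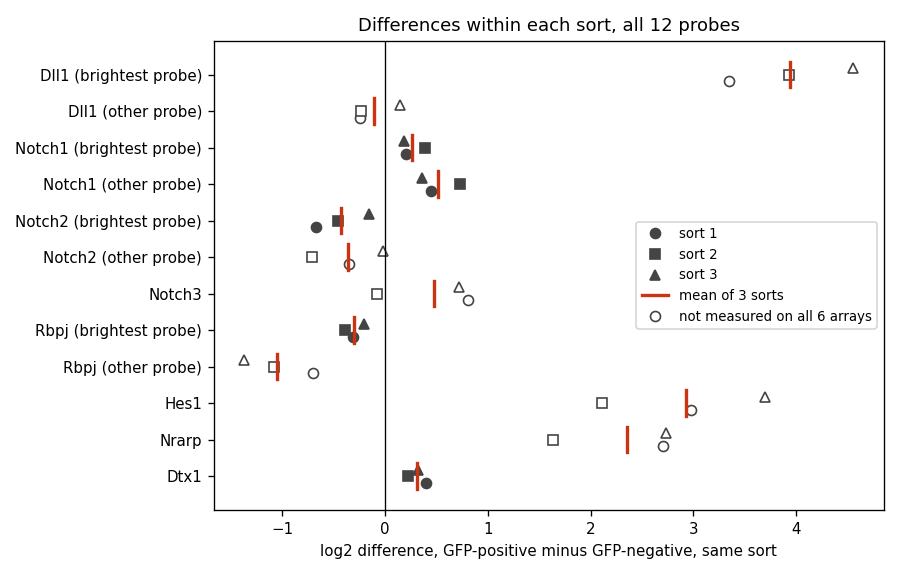
Log2 difference, GFP-positive minus GFP-negative array of the same sort (horizontal axis), for all 12 probes of the member genes. Symbols stand for sorts, open ones for probes not measured on all 6 arrays, and the red bar for the mean. Dll1, Hes1 and Nrarp lie at means of 3.94, 2.93 and 2.36, and the bars of the other probes lie between -1.05 and 0.51.

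Of the 8 member genes, 7 were compared and Notch3 was not. The limma model placed 2 of them, Dll1 and Hes1, among the genes higher in GFP-positive cells, and 0 among the lower ones, where 1.2% and 1.57% of all genes compared were called at the threshold of 0.05 on the adjusted p. When the model also held the sort, Nrarp joined them, which made 3 higher and 0 lower beside 3.66% and 4.33% of all genes. Dll1, Hes1 and Nrarp entered the comparison through their 3 GFP-positive arrays, with 1 GFP-negative array measured for each. Of 18 other settings tried, Dll1 was called in 16, Hes1 in 6 and Nrarp in 1. Hes1 was not called with the slide as a block, with normexp or without any 1 array. The groups did not overlap for 3 member genes in the higher direction and 1, Notch2, in the lower direction, and did so for 8.53% and 9.68% of all genes. The median difference was 0.31 over the 7 members compared and -0.01 over all genes. As the members were chosen with these differences known, nothing is read from these counts.

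The profiles nearest to those of the 3 genes with the greatest differences were sought among 12195 other named genes, by root mean square distance of centred log2 levels over the 6 arrays. No member with a log2 difference over 1 was measured on every array, so the search was opened to genes measured on fewer arrays after this had been seen. Dll1, Hes1 and Nrarp were each measured on 1 GFP-negative array, so the distances rest partly on values near background. Nearest to Dll1 were Gjb2, a gap junction gene, at a distance of 0.18, Cd200r2, of the CD200 receptor family, at 0.22, and the chemokine receptor gene Cxcr5, at 0.27. The differences of these genes were 3.83, 4.27 and 4.18, and that of Dll1 was 3.94. Nearest to Hes1 were Aoah, an acyloxyacyl hydrolase, at 0.21, the ethanolamine kinase gene Etnk2 at 0.30 and the lectin-like receptor gene Klri2 at 0.35. For Nrarp the nearest genes were farther away, with Tceal1, Adamts14 and Stx3 all at 0.38. Of these neighbours Etnk2 was measured on 0 GFP-negative arrays, Tceal1 and Stx3 on 1 and Cd200r2 and Adamts14 on 2. Gjb2, Cxcr5, Aoah and Klri2 were measured on 3.

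Promoter windows of 300 bases around the annotated start were held by RefSeq (build GRCm38.p6) for 7 of the 8 members, in 9 windows. The letters TGGGAA, the core of the sequence bound by the Rbpj protein, were searched on both strands. They occurred in 2 of the 9 windows, both of Rbpj, and in 25.6% of all 32851 windows of this length. The Rbpj windows overlap, from 53590096 to 53590395 and from 53590236 to 53590535 of chromosome 5. The only core in the latter, at -205, is the same site as that at -65 in the former, so they are not independent. The longer form CGTGGGAA, which contains the core, occurred in 0.734% of all windows and in 0 of the 9. The member with no window is Hes1. The first of 2 windows of Dll1 and the window of Nrarp are shown because these genes had large differences, and 1 of Rbpj as the one that holds the core at 2 places, in capitals, at -149 on the plus and -65 on the minus strand of the gene.
Dll1, chr17:15375774-15376073, minus strand: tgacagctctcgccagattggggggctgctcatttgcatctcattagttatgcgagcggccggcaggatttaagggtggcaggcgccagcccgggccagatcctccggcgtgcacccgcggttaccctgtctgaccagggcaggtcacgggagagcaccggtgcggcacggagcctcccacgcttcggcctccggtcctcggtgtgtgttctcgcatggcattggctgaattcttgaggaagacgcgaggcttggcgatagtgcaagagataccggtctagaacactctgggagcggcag
Nrarp, chr2:25180508-25180807, plus strand: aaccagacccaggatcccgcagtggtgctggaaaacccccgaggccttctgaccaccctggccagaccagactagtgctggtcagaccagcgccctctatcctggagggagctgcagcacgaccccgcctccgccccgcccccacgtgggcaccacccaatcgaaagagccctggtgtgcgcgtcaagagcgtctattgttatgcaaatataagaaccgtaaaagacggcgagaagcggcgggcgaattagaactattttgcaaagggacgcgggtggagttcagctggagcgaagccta
Rbpj, chr5:53590096-53590395, plus strand: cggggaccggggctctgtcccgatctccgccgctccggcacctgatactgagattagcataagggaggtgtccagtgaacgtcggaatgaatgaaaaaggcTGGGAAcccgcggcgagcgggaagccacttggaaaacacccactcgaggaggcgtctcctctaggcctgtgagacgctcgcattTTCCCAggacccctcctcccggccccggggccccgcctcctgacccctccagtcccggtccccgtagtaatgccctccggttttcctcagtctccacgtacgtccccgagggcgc

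The rest of the pathway was described from a list of 70 further genes by role, of which 69 were found on the array and 62 were tested. Of these, 0 rose and 5 fell in GFP-positive cells (limma, adjusted p under 0.05), where 1.2% of all genes compared rose and 1.57% fell. An unadjusted p under 0.05 was found for 11 of the 62, and for 2009 of the 16413 genes. The median difference of the list was -0.003, against -0.01 over all genes. A model that also held the sort gave 2 that rose and 6 that fell, beside 3.66% and 4.33% of all genes. The list was chosen with earlier results of these data known, so its tests and counts are not independent of that choice.

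Jag1, a ligand of the Jagged family, fell, while Dll1 was higher. Jag1 was at -1.10, -1.16 and -0.70 in GFP-negative and at -5.38, -6.88 and -5.05 in GFP-positive cells of sorts 1, 2 and 3, where it was not well above background on any array. The difference of Jag1 was -4.78 (SE 0.50, limma adjusted p = 0.0102). With the positive arrays raised to the floor it was 25-fold lower in the positive cells, and with the normexp correction the difference was -2.70. Jag1 entered the comparison through its 3 GFP-negative arrays, so its SE and p-value rest on positive values near background. In GFP-positive cells the measured ligand of the pair was Dll1, and Jag1 was measured on 3 of 3 GFP-negative arrays, where Dll1 was measured on 1. The other ligands tested, Dll3, Jag2 and Dlk2, differed by -0.32, -0.30 and -0.03 and did not pass.

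Targets known in T cells held 3 of the 5 genes that fell, among 7 tested. Trib2, a pseudokinase gene, fell by 2.27 (SE 0.22, limma adjusted p = 0.00786), from 3.37, 2.71 and 2.86 to 0.87, 0.66 and 0.59 in sorts 1, 2 and 3. Igf1r, the receptor for insulin-like growth factor 1, fell by 1.97 (SE 0.16, limma adjusted p = 0.0044), from 1.20, 1.10 and 1.38 to -0.64, -0.67 and -0.92. Il2ra, the α chain of the IL-2 receptor, fell by 1.62 (SE 0.27, limma adjusted p = 0.043), from 0.45, 0.95 and 1.07 to -0.86, -1.14 and -0.39. These genes lay in the opposite direction from Hes1 and Nrarp, and no array of 1 group reached the other. Myc, Tcf7, Gata3 and Ccnd3 differed by 0.16, 0.08, -0.17 and -0.29 without passing the test.

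Among ubiquitin ligases and endocytic adaptors, 1 of 13 genes fell and 0 rose. Dtx4, a relative of Dtx1, fell by 1.04 (SE 0.15, limma adjusted p = 0.0304), from -0.10, -0.17 and 0.20 to -1.02, -1.11 and -1.06. Numbl, which encodes an adaptor related to the Notch inhibitor Numb, rose with the sort as a block (difference 2.05, limma adjusted p = 0.00534) but did not pass without it (0.0604). In the Hes and Hey family, 0 of 5 passed without the block. Heyl, a target of the Hey branch, differed by 1.48, with a limma adjusted p of 0.0164 with the block and 0.199 without, and Hes6 differed by -0.05 (0.988 without). Maml3, a coactivator of the Rbpj complex, was the sixth gene to fall with the block, by 0.91 (limma adjusted p = 0.0361, and 0.22 without). Dimmer Maml3 probes, measured on 1 array and on none, differed by -0.59 and 0.06. With the mean of all probes Maml3 differed by -0.48, and it passed in 1 of 19 settings.

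Machinery that makes, cuts or reads Notch did not pass the test without the block in any role. This covers 8 cleaving proteases, with Psenen at -0.06 and Adam10 at 0.16, and 5 sugar transferases, with Mfng at -0.35 and Pofut1 at 0.25. It also covers 11 corepressors, with Hdac1 at 0.17 and Tle3 at 0.28, 8 coactivators, with Snw1 at 0.01 and Crebbp at 0.02, and the receptor Notch4 at 0.28. The SEs of the differences printed here were 0.13 to 0.34. Some other genes of these roles had larger SEs, such as 0.93 for Aph1b and 0.63 for Lfng. A missed test does not show equal levels.

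With 2 sorts in place of 3, none of the 5 pathway genes passed, with limma adjusted p-values up to 0.217 for Jag1, 0.119 for Trib2, 0.136 for Igf1r, 0.379 for Il2ra and 0.328 for Dtx4. Without sort 1 or sort 2 no gene of the 16413 passed, so those fits were too small to say how a call depends on a sort. The differences in the 3 fits were -5.04 to -4.32 for Jag1, -2.39 to -2.16 for Trib2, -2.07 to -1.81 for Igf1r, -1.77 to -1.39 for Il2ra and -1.10 to -0.93 for Dtx4. Without any 1 array Il2ra and Dtx4 were lost, and Jag1 was lost without GFP-negative array 1 (0.0523) or GFP-negative array 3 (0.0522), whereas Trib2 and Igf1r passed in each of these fits. With the slide as a block Il2ra (0.0567) and Dtx4 (0.0684) were lost too, as they were with median scaling (0.0744 and 0.164) and with no filter on dim probes (0.103 and 0.124), and Il2ra also with quantile normalization (0.0518). Over all settings tried Il2ra passed in 6 of 19 and Dtx4 in 7 of 19. With the slide as a block Heyl (0.0234) and Numbl (0.0162) passed.

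**Figure D4:**
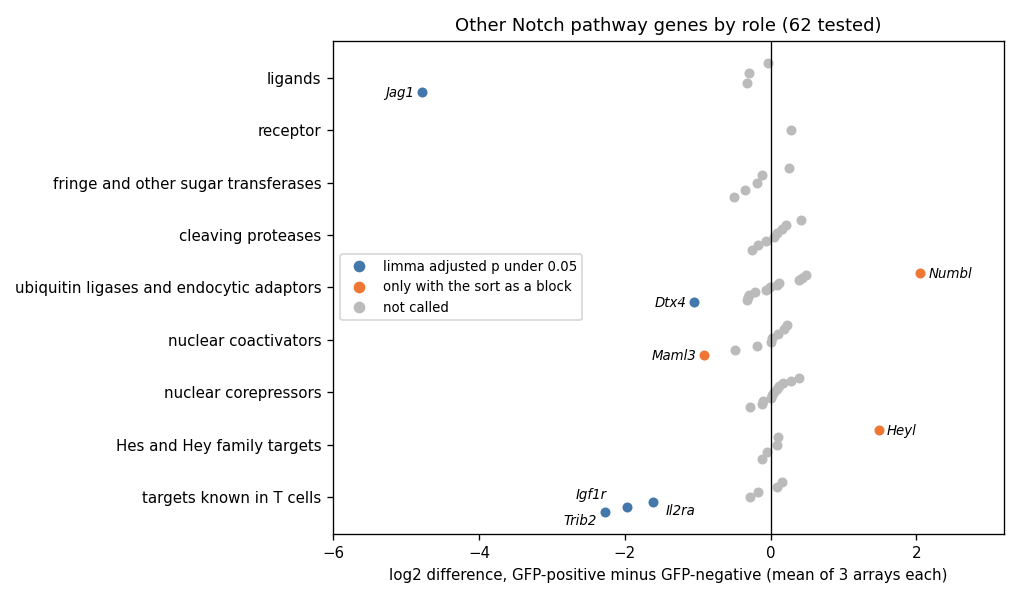
Log2 difference, GFP-positive minus GFP-negative (horizontal axis), of the 62 further pathway genes tested, by role. Each point is a gene, blue where it passed limma's test, orange where it passed only with the sort as a block, and grey otherwise. Jag1 lies at -4.78, Trib2 at -2.27, Igf1r at -1.97, Il2ra at -1.62 and Dtx4 at -1.04, while most points lie near 0.

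Markers of other spleen cells were set beside the differences of Dll1, Hes1 and Nrarp as summed levels relative to the 75th percentile, in ranges over arrays. The stroma and endothelium list, from cells known to carry Notch ligands, was at 2.05 to 2.47 in GFP-positive and 2.49 to 3.75 in GFP-negative cells. Of its 9 genes, 4 were measured on all arrays, Cdh5 and Pdgfra on none, and 0 were called. The marginal zone B cell list of 5 genes, from cells that depend on Dll1 and Notch2, was at 22.3 to 33.3 and 20.5 to 24.7, with 0 called and a median difference of -0.21. Of that list Cd9 differed by 0.63, and Cd1d1, Fcrl5 and S1pr3 by -0.34, -0.21 and -0.89. The B cell list of 8 genes was at 9.61 to 19.0 and 16.0 to 24.0, with 0 called. Its brightest gene, Cd79b, differed by -0.92 (limma adjusted p = 0.0598, and 0.0217 with the sort as a block), and Cd22 by 0.70. The NK cell list of 7 genes, which includes Eomes, was at 110 to 132 in GFP-positive and 18.7 to 61.0 in GFP-negative cells, with all 7 measured on every array and 3 called higher, among them Eomes. The part of NK cell genes in the differences of Dll1, Hes1 and Nrarp was not tested.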

How the data were processed

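Per the labels, total RNA was amplified once, labelled and hybridised to one-colour Agilent arrays. Per the file headers and the submitters' processing notes, the deposited scanner values are intensities on a linear scale from Agilent Feature Extraction 10.7.3.1, background-subtracted and not normalized between arrays. The deposited spot columns also hold other values, 0 or 1 flags for signal above background, saturation and outliers. The authors' deposited value table holds intensities scaled between arrays, with 75th percentiles of 1497 to 1506, and its log2 offset from the scanner values of measured probes was constant within an array (interquartile range at most 0.0034). How that table was made is not given in the sources used here.

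Log2 processed intensities of the 4 spots of a probe were averaged without outlier spots, and each array was centred on its 75th percentile. RefSeq accessions named 27508 probes, renaming 2017, and 11921 kept the name in the scanner file. Each gene took its brightest probe, and the 16413 genes with a measured signal on 3 or more of the 6 arrays entered a limma fit (limma 3.58.1, statmod 1.5.0 and R 4.3.3, with version 1.17.8 of data.table), with group as the only term and Benjamini-Hochberg adjustment. Its p-values measure the spread of the 3 arrays within each group and do not use the pairing of arrays by sort. The smallest two-sided p of an exact permutation test with 3 arrays a group is 0.1. The fit was also run on simulated data with independent arrays, a run that does not cover arrays sharing a sort. Same-numbered arrays come from the same sort per the labels, and their deviations from the group means correlated at 0.812, 0.818 and 0.808, so the sort pairs the arrays. Figures used matplotlib 3.10.9, pandas 2.3.3 and Python 3.11.15.

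The member genes, the pathway and marker lists, the tests and the genes to name were chosen with earlier results of these data known. Named were all members, every called pathway gene up to 4 per role or the 2 brightest where none was called, and the 3 most alike genes. Genes that passed only with the sort as a block, the remaining ligands and T cell targets were named after their values were seen. Positions of probes follow the scanner files (mm9), and exon or UTR annotation was not used here.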

Additional observations from a re-analysis of the deposited data

How the results depend on the processing

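Differences of the members kept their sign in every setting tried except for Notch1, which was -0.11, -0.38 and -0.70 without GFP-negative array 1, GFP-negative array 2 and GFP-positive array 3. Those fits leave sort 3, where the Notch1 probe was 2.94 higher, unevenly split between the groups, and within sorts the difference was 0.20, 0.39 and 0.18. When 1 sort or 1 array was left out, values were -0.70 to 1.26 for Notch1, -0.45 to -0.21 for Rbpj and 0.19 to 0.40 for Dtx1, and 3.64 to 4.24 for Dll1, 2.54 to 3.34 for Hes1 and 1.76 to 2.88 for Nrarp. With normexp, Dll1 was 2.24, Hes1 1.30 and Nrarp 0.77. With the mean of all probes, Dll1 was 1.92, Notch1 0.39 and Rbpj -0.68. With median scaling, Dtx1 was 0.41 and Rbpj -0.21. With the slide as a block Dtx1 was 0.43. Within slide 1, Notch1 was 0.47, Notch3 1.03 with neither negative array measured, Dtx1 0.51 and Nrarp 1.58, and within slide 3, Notch2 was -0.15, Dll1 4.56 and Rbpj -0.21.

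Over all genes limma called 197 higher and 257 lower. With the replicate block, which pairs the arrays of a sort, it called 600 and 710, and 2 higher and 6 lower pathway genes in place of 0 and 5. With no filter on dim probes it called 92 and 154, with 3 lower pathway genes, and 166 lower among genes measured on all 6 arrays. With the slide as a block 2 pathway genes were higher and 3 lower, and with median scaling 3 were lower. With 1 sort or 1 array left out, there were 0 to 101 higher and 0 to 180 lower genes, and 0 to 3 lower pathway genes. Without sort 1 limma called 0 genes, with 650 higher and 704 lower at an unadjusted p under 0.05, and without sort 2 also 0, with 578 and 689. The cause of these shifts was not tested, apart from the fewer arrays or genes that some settings leave. Raising dim arrays to the background floor was chosen after seeing the data. Signal over background limits Dll1, Hes1 and Nrarp in GFP-negative cells, Jag1 in GFP-positive cells, and Notch3 everywhere.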

Other observations

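The ligand genes Dll4, Dlk1 and Dner were not compared, because they were measured on fewer than 3 arrays, and so were Hey2 of the Hes and Hey family and Ptcra, the pre-T cell receptor chain of αβ T cell development. The αβ T cell marker list, of which 6 of 7 genes were found on the array, had summed levels of 22.1 to 28.4 in GFP-positive and 26.9 to 38.1 in GFP-negative cells. In that list Cd8b1, the CD8β chain against which cells had been depleted, fell by 2.86 (limma adjusted p = 0.0194), and Cd40lg was not well above background on any array. Dendritic cell markers were at 51.4 to 95.0 and 49.2 to 101, with Itgax, an integrin chain, up by 3.65 (limma adjusted p = 0.0431). Most of these sums came from Siglech, at mean levels of 5.81 and 5.79, while Clec9a and Xcr1 were each measured on 1 array per group. Myeloid markers were at 14.2 to 75.8 and 19.5 to 109, red cell markers at 18.2 to 208 and 17.7 to 162, and stress genes at 4.28 to 5.19 and 4.72 to 6.16, with 0 called in each. Csf1r, Lyz2, Adgre1, Cd14 and Cd68 were highest in sort 2 in each group, with Csf1r at 5.14 in its GFP-negative and 3.74 in its GFP-positive cells. Itgam was highest in sort 3, and Fcgr1 in sort 2 of the GFP-negative and sort 3 of the GFP-positive cells. Among GFP-negative arrays, Hes1 and Nrarp were measured only on that of sort 2. Whether myeloid RNA had a part in that was not tested.

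The share of probes higher in sort 3 by at least 2 on the log2 scale was 0.478% of 628 probes with up to 9 A, 0.28% of 3926 probes with 10 to 14 A and 0.375% of 7734 with 15 to 19 A. It was 1.04% of 4323 probes with 20 to 24 A, 7.9% of 772 with 25 to 29 A and 17.5% of 120 with at least 30 A. The median shift was 0.32 in the class with 25 to 29 A, which holds the brightest Notch1 probe, and 0.11 with at least 30 A, so it did not follow the share.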
